A study of Mus musculus with 24 samples.

Results

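H3K27Ac over genes was compared between formalin-fixed, paraffin-embedded (FFPE) brain and flash-frozen (Frozen) brain of the mouse. The comparison took every gene of the deposited table in the FFPE and Frozen brain columns. It rested on 4 of the 24 samples of the series, 2 H3K27Ac libraries in each preservation, and the same difference in heart, kidney and liver served as the reference. Strain, age and sex of the mice were not given in the sources used here. FFPE brain had been fixed in 10% formalin, freed of paraffin and extracted at 95 °C for 20 min. Frozen brain had been sampled as a tissue core and crosslinked in 1% formaldehyde for 30 min. Ultrasound sheared the chromatin of both, and an antibody to H3K27Ac precipitated it. The labels named 2 replicates a group, but the table held 1 column a group, and whether a column was 1 library or a merge was not stated. Below, each such column is called a library. There was therefore no replicate error within brain, and no test of brain FFPE against brain Frozen was possible. Heart, kidney and liver shared the 2 treatments, so that preservation, tissue block and mouse could not be told apart in any organ.

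H3K27Ac is the acetylation of lysine 27 on histone H3, and it marks active promoters and enhancers. Its sum over a gene therefore follows which cell types a piece of tissue contains and which genes those cells use. The brain is built of regions with their own neurons. In the cerebellum these are the small, very numerous granule cells and the large Purkinje cells. Genes such as Zic1, Zic2, Neurod1, Cbln1 and Gabra6 belong to the granule cell lineage, and Pcp2, Car8 and Slc1a6 to Purkinje cells. In bulk tissue, fewer cells of a type and less mark per cell cannot be told apart.

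The start sites of 5 cerebellar genes are shown because the comparison turned on them. Gabra6, Cbln3, Neurod1 and Barhl2 were higher in FFPE brain, and Pcp2, a Purkinje gene, had near equal levels in both. Each runs 5′ to 3′ on the strand of the gene, from 250 bases before to 50 bases after the start, from RefSeq in build GRCm38.p6. Capitals mark CG, a motif that reads the same on both strands.
Gabra6: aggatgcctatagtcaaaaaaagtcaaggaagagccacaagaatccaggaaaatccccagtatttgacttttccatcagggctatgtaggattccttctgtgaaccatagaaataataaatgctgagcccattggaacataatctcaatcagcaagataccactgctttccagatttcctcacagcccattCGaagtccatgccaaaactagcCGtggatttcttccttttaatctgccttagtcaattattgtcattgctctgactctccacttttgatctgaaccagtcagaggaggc
Cbln3: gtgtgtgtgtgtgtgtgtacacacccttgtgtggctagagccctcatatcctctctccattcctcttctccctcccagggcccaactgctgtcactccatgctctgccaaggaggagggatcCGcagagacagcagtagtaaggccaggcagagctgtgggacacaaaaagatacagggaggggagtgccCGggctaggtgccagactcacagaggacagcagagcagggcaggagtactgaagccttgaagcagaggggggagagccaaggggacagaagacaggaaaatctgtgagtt
Neurod1: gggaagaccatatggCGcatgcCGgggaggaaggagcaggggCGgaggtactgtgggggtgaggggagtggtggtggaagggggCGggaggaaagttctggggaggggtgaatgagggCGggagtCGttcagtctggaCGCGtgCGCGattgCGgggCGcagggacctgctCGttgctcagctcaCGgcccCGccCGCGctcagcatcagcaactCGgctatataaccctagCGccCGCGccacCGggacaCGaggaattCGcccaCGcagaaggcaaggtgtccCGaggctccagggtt
Barhl2: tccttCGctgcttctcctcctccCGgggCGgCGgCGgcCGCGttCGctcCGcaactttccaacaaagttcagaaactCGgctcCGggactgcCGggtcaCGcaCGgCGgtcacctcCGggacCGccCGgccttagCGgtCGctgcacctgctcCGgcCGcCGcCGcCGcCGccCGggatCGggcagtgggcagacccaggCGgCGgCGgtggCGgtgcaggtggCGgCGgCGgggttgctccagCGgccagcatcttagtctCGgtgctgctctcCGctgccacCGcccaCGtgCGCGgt
Pcp2: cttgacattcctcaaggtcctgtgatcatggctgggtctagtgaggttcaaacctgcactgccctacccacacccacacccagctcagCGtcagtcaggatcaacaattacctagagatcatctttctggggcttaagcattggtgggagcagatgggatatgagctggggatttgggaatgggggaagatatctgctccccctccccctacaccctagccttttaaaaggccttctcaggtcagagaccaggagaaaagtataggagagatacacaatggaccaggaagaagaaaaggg
They lie at chr11:42321023-42321322 for Gabra6, chr14:55884207-55884506 for Cbln3, chr2:79456587-79456886 for Neurod1, chr5:106458117-106458416 for Barhl2 and chr8:3625498-3625797 for Pcp2, all on the minus strand. Gabra6 and Cbln3 each held 2 CG, Neurod1 held 26, Barhl2 held 42 and Pcp2 held 1. Over the start sites of 27025 genes, 1 a gene and of the same length, the median was 7, and 26.8% held 20 or more. The genes shown with a higher value in FFPE brain thus had start sites poor in CG and start sites rich in it. A further comparison of the differences with CG content across genes is not drawn on here. Only 17609 of the 23832 genes compared, under 80%, had a start site in the table.

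The 2 brain libraries were close in depth and differed most in their mitochondrial share. They held 4618827 reads over genes in FFPE and 4713901 in Frozen, and the median gene had 97 and 119 reads. Mitochondrial genes took 16.04% of the reads in FFPE brain and 5.62% in Frozen brain. The share was 12.7% to 36.0% in FFPE and 4.52% to 5.45% in Frozen over the other organs. Of 20 pan-neuronal genes, the median level was 6.17 (log2 CPM, reads scaled to the size of the library) in FFPE brain and 5.58 in Frozen brain. The same genes lay at 3.35 to 4.15 in the other 6 libraries, so that both columns carried the neuronal signal of their label. The X-inactivation transcript gene Xist had 222 reads in FFPE brain and 236 in Frozen brain. The Y-linked genes Ddx3y, Eif2s3y, Kdm5d and Uty together had 508 and 592.

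Most genes had much the same level in both preparations of brain. Inputs were not used, so that background and mark cannot be told apart in these levels. Of 23832 genes with at least 40 reads over the pair, 78.6% differed by less than 0.5 on the log2 scale. A gene was counted as different when its level moved by at least 2-fold, which is 1 on the log2 scale. By that rule 603 genes (2.53%) were higher and 435 (1.83%) were lower in FFPE. By sign alone, 11925 of the 23832 genes were above 0 and 11902 below 0, shares that a shift of the scaling would move. An exact 95% interval of the ratio of the read counts, which covers counting error only, lay wholly beyond 2-fold for 217 higher genes (0.911%) and 47 lower genes (0.197%). Under scaling to total counts the same rule gave 359 higher and 940 lower genes, since this scaling moved the median of all brain differences to -0.23. Because this scaling shifts every brain difference by the same amount, counts relative to that median return to 603 and 435 by construction.

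The same rule gave 5.43% higher and 3.86% lower of 21433 genes in heart, 2.5% and 2.76% of 23444 in kidney, and 6.95% and 6.68% of 22316 in liver. The differences had an SD of 0.505 (log2) in brain, while heart had 0.629, kidney 0.536 and liver 0.726. The place of brain below heart depended on scaling: after quantile normalization the SD was 0.547 in brain and 0.518 in heart. Over 20858 genes, no replicates of each other, the brain difference had a Pearson correlation of 0.179 with that in heart, 0.301 with kidney and 0.151 with liver. No 2 of these differences shared a library.

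**Figure D1:**
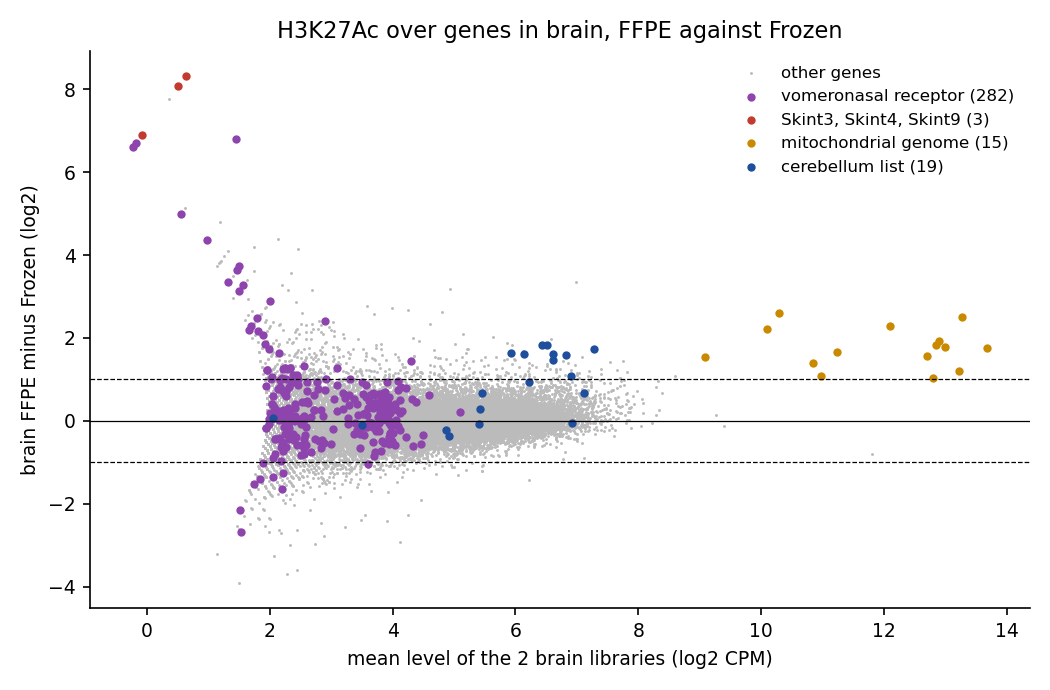
Difference between FFPE and Frozen brain (log2, vertical axis) against the mean level of the 2 brain libraries (log2 CPM, horizontal axis), 1 point a gene with at least 40 reads over the pair. Dashed lines mark 2-fold. The 15 mitochondrial genes lie at the right above the upper line, Skint3, Skint4 and Skint9 at the upper left, and 9 of the 19 cerebellum genes above the upper line at levels where few other genes pass it.

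Among the lists of brain regions, cerebellar genes stood out in FFPE brain. Of 19 cerebellum genes, all with at least 40 reads over the pair, 9 were at least 2-fold higher and 0 were lower, against 2.53% and 1.83% of all genes. The lists were chosen with earlier results of these data known, so that their shares here and below are descriptions. Their median difference in brain was 0.93 (log2), compared with 0.44 for heart, 0.02 for kidney and 0.07 for liver. The brain median was 0.70 to 1.02 under the other scalings. Their median level was 5.52 in Frozen brain and 6.89 in FFPE brain (log2 CPM), and 3.93 to 4.57 in the other 6 libraries. Cerebellar genes were thus above the other organs in Frozen brain already and further above them in FFPE brain.

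Transcription factors of cerebellar neurons made up 6 of the 9 higher members. Zic2, a zinc finger factor of granule cell precursors, lies at chr14:122475384-122480328. It had 780 reads in FFPE brain and 264 in Frozen brain, and 81 to 132 in the other 6 libraries. This was 3.55-fold higher in FFPE brain (95% interval 3.08 to 4.09). Zic1, at chr9:91358058-91365768, had 940 and 377 reads and was 2.99-fold higher (2.65 to 3.38). Zic4 overlaps the start of Zic1, so that reads there cannot be told apart, and it was 2.12-fold higher (1.89 to 2.38), with 839 and 475 reads. Neurod1, a basic helix-loop-helix factor of granule cells, had 787 and 340 reads and was 2.78-fold higher (2.45 to 3.17). Pax6, a paired box factor of granule cell precursors, had 821 reads in FFPE brain and 323 in Frozen brain, and 102 to 183 in the other 6 libraries. It was 3.05-fold higher (2.68 to 3.48). The homeobox factor Barhl2 had 520 and 199 reads, 3.14-fold higher (2.66 to 3.71), whereas its paralog Barhl1 had 200 and 251, a difference of -0.06 on the log2 scale. Etv1, an ETS factor of granule cells, had 497 and 313 reads and differed by 0.93.

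Genes for the synapses and surface of granule cells were higher as well. Cbln1, the secreted organizer of the synapse between granule and Purkinje cells, lies at chr8:87468853-87472592. Its reads were 826 in FFPE and 278 in Frozen brain, 113 and 67 in heart, 94 and 74 in kidney, and 45 and 60 in liver. It was 3.57-fold higher in FFPE brain (95% interval 3.11 to 4.10), and its Frozen brain level also lay above the other 6 libraries. Cbln3, its partner in granule cells, had 1369 and 491 reads in brain, the highest FFPE level of the list, and was 3.35-fold higher (3.02 to 3.72). In liver Cbln3 had 532 reads in FFPE and 994 in Frozen, a difference of -0.59. Gabra6, the GABA-A receptor subunit known from cerebellar granule cells, had 595 and 233 reads and was 3.07-fold higher (2.63 to 3.58). The cadherins Fat2 and Cdh15 stayed under 2-fold, with 844 and 632 reads for Fat2 and 267 and 200 for Cdh15, each a difference of 0.68.

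Purkinje cell genes of the same list had no such difference. Slc1a6, a glutamate transporter of Purkinje cells, had 128 reads in FFPE brain and 198 in Frozen brain (-0.36). Itpr1, the calcium release channel, had 571 and 709 (-0.05), and Ppp1r17 had 52 and 67 (-0.10). Pcp2 had 20 and 23 reads (0.07), a level near that of the other organs, and Car8 had 229 and 224 (0.30). Split by cell of origin, a grouping made after these values were seen, 9 of 13 granule lineage genes and 0 of 6 Purkinje genes passed 2-fold. The summed reads of the 13 granule lineage genes were 9285 in FFPE and 4376 in Frozen brain. In the other organs the granule sums ran from 1532 to 2396. The summed reads of the 6 Purkinje genes were 1129 in FFPE and 1402 in Frozen brain, and 955 to 1693 in the other organs. Their brain sums thus lay within the range of the other organs, and these genes may not show a difference in Purkinje cells.

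**Figure D2:**
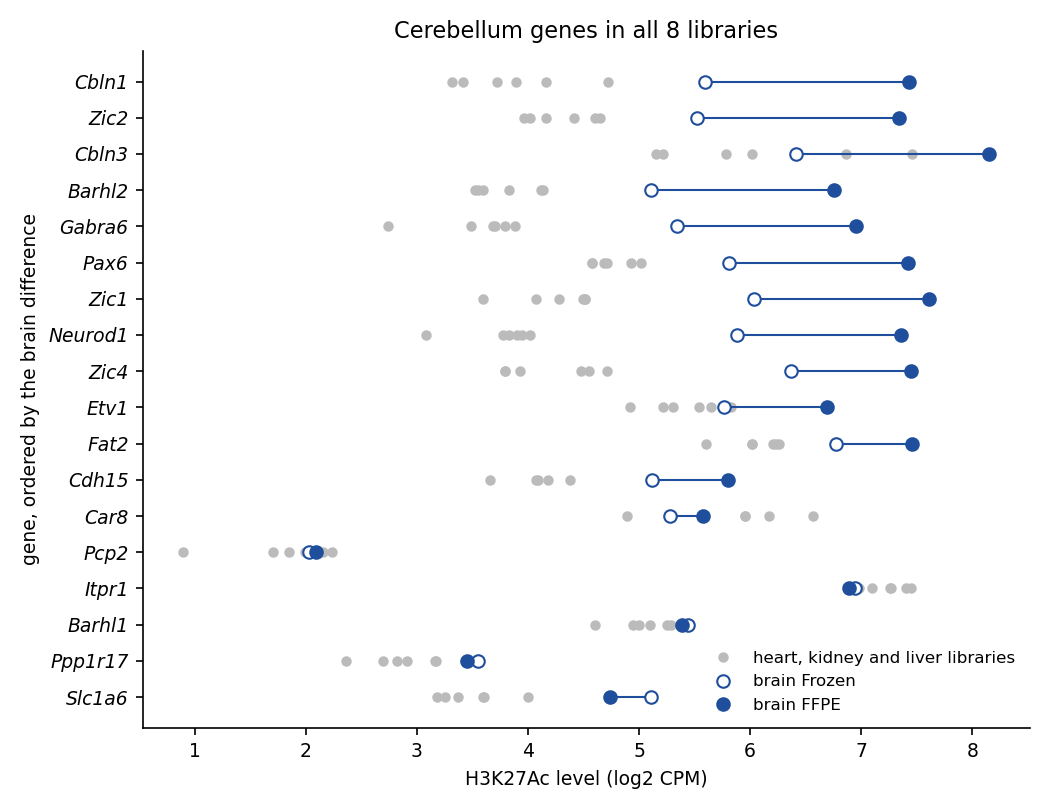
H3K27Ac level (log2 CPM, horizontal axis) of 18 of the 19 cerebellum genes in all 8 libraries, ordered by the brain difference (vertical axis). Open circles are Frozen brain, filled blue circles FFPE brain and grey points the 6 libraries of the other organs. From Cbln1 to Zic4 the filled circle lies at least 1 unit to the right of the open one, and from Car8 down the 2 brain circles lie within 0.36 of each other.

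Whether the cerebellar difference was particular to brain was tested gene by gene. A linear model of limma compared the FFPE minus Frozen difference in brain with the mean of that in heart, kidney and liver. It had 2 residual degrees of freedom, from how far the 3 other organs differ among themselves, and brain was assumed to vary like them. Limma drew each variance strongly towards a prior set by genes of like level, so that the SEs hardly follow a gene's own spread. Stk10, with -0.03, -0.18 and 0.11 in heart, kidney and liver, had an SE of 0.41. Faap20, with -0.67, -0.69 and -1.94, had an SE of 0.41 as well. Over all 26944 genes, limma called 2 genes above (0.00742%) and 0 below (0.0%) at an adjusted p of 0.05. At an unadjusted p of 0.05 it gave 1042 above (3.87%) and 343 below (1.27%). With a prior without trend these were 392 and 544, under total counts 354 and 220, and without kidney 2106 and 563. It called 0 of the 19 cerebellum genes, and 8 of 19 were above at the unadjusted p, which became 4 of 19 under total counts and with a prior without trend. Pax6 exceeded the other organs by 1.72 ± 0.46 (SE) on the log2 scale, with an adjusted p of 0.22 by limma. Cbln3 did so by 1.46 ± 0.41, with an adjusted p of 0.30. With the 8 libraries set to the same median and spread, limma called 1 of the 19, Pax6.

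Several neighbours of Zic2 on chromosome 14 were also higher in FFPE brain. Of 12 genes that start in the 1 Mb window that holds Zic2, 6 were at least 2-fold higher in FFPE brain, against 2.53% of all genes. The 6 include Zic2 itself. The window was among those listed for holding the most such genes, so that its count is a description. Zic5, the divergent partner of Zic2, had 662 reads in FFPE and 337 in Frozen brain, a difference of 1.24. The noncoding gene 2610035F20Rik, which ends at 122475199 just before Zic2, had 455 and 248 (1.14). Clybl, farther before Zic2, had 310 and 120 (1.63), and its differences in heart, kidney and liver were -0.15, -0.76 and -1.13. Pcca, which begins after Zic2, had 354 and 214 (0.99). Farther out, Tm9sf2 had 183 and 249 reads (-0.18) and Tmtc4 had 274 and 276 (0.25). Gm5089, which starts within Clybl, had 204 and 167 (0.55). The other 2 higher genes were as high in another organ: 1700108J01Rik differed by 1.93 in brain and 2.47 in liver, and Ggact by 1.31 in brain and 1.84 in heart. The span of 1700108J01Rik lies wholly within that of Clybl, so that the 6 genes are not separate signals. Over all 12 genes the brain median was 1.06.

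The midbrain and hindbrain list gave 3 higher (16.7%) and 0 lower of 18 genes, against 2.53% and 1.83% of all genes, with a median difference of 0.06. The interval of 1 of the 3, Tlx3, lay wholly beyond 2-fold. Tlx3, a homeobox factor of hindbrain neurons, had 332 reads in FFPE brain and 64 in Frozen brain and was 6.23-fold higher (95% interval 4.75 to 8.27). Its differences were 0.08 in heart, 0.36 in kidney and -0.12 in liver. En2, a homeobox factor of the midbrain and cerebellum, had 504 and 276 reads, 2.19-fold higher (1.89 to 2.55). Lhx1, a LIM homeobox factor made in Purkinje cells among others, had 539 and 281, 2.30-fold higher (1.99 to 2.67). The glutamate receptor list also held 2 genes of cerebellar granule cells. Grin2c, an NMDA receptor subunit, had 864 and 383 reads, 2.71-fold higher (2.40 to 3.06). Grm4, a presynaptic metabotropic receptor, had 710 and 327, 2.61-fold higher (2.28 to 2.98), with differences of -0.89, -0.65 and 0.09 in heart, kidney and liver. No other of the 26 glutamate receptor genes passed 2-fold.

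Lists of the forebrain regions held no gene past 2-fold. Of the telencephalon (13), striatum (13), hippocampus (9), thalamus (12) and hypothalamus (13 with 40 reads) genes, 0 passed 2-fold in either direction. Their medians were 0.11, 0.11, -0.38, 0.02 and -0.22, where the quartiles of all genes were -0.25 and 0.25. In the hippocampus list 7 of 9 genes were below 0, where 11902 of all 23832 genes were. Zbtb20, a zinc finger factor of hippocampal neurons, had 145 reads in FFPE and 274 in Frozen brain (-0.65), and Lct had 178 and 344 (-0.68). Prox1, the homeobox factor of dentate granule cells, had 255 and 326 (-0.09).

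Markers of glia and vessels differed little between the preparations. Of all 23832 genes 11925 were above 0 and 11902 below 0. Of 18 oligodendrocyte genes 0 passed 2-fold and 11 were above 0, and their median was 0.08. Mbp, a main protein of myelin, had 475 reads in FFPE and 625 in Frozen brain (-0.13). Of 18 astrocyte genes 0 passed 2-fold and 14 were below 0, with a median of -0.14. The glutamate transporter gene Slc1a2 had 592 and 816 reads (-0.20). The 6 oligodendrocyte precursor genes, the 18 endothelial genes, the 10 mural cell genes and the 10 meningeal genes held 0 past 2-fold, with medians of -0.14, 0.13, -0.17 and -0.04. All 6 precursor genes were below 0, and 12 of the 18 endothelial genes were above 0. Of 18 microglia genes 1 (5.56%) was lower, against 1.83% of all genes. This was Fcrls, with 38 and 110 reads, and Cx3cr1 had 123 and 146 (0.02). Of 14 choroid plexus and ependyma genes 1 (7.14%) was higher, against 2.53% of all genes. This was the transthyretin gene Ttr, with 106 and 55 reads.

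With the scaling of the authors, pan-neuronal genes were mostly above 0, with few members past 2-fold. Of all 23832 genes 11925 were above 0, and 2.53% were at least 2-fold higher. Of 20 pan-neuronal genes 15 were above 0 and 1 (5%) passed 2-fold. This was Stmn2, a regulator of axonal microtubules, with 555 and 276 reads, 2.42-fold higher (95% interval 2.09 to 2.80). The median of the list was 0.32 in brain, and 0.15, 0.18 and 0.45 in heart, kidney and liver. Under scaling to total counts, which shifts every brain difference alike, the brain median was 0.09. Snap25, a protein of vesicle release, had 367 and 230 reads (0.94), whereas the neurofilament gene Nefl had 179 and 341 (-0.66). Of 14 excitatory neuron genes 1 was higher, Neurod2, a factor made in cortical and cerebellar granule neurons, with 671 and 394 reads (1.03). Of 15 inhibitory neuron genes Dlx6 was higher with 57 and 28 reads (1.28), and the somatostatin gene Sst was lower with 16 and 57 (-1.54).

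Markers of hepatocytes, cardiomyocytes and the nephron held 0 genes past 2-fold in brain. Medians in FFPE and Frozen brain were 3.65 and 3.73 (log2 CPM) for 16 hepatocyte genes, 3.36 and 3.29 for 14 cardiomyocyte genes and 4.64 and 4.61 for 13 nephron genes. The median over all genes was 4.36 and 4.38. Among blood cells, of 6 erythroid genes with 40 reads over the pair 1 was lower, the alpha globin gene Hba-a1, with 5 and 40 reads. Of 12 lymphocyte genes 0 passed 2-fold.

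**Figure D3:**
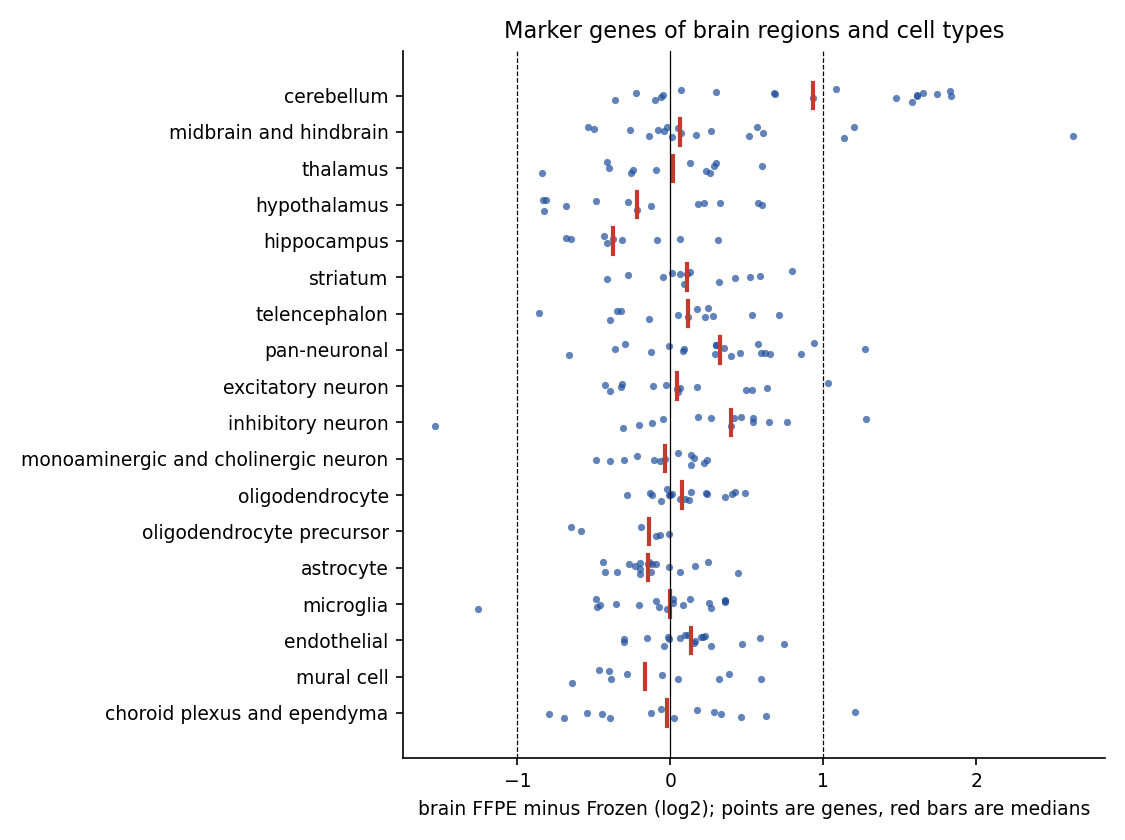
Difference between FFPE and Frozen brain (log2, horizontal axis) for each marker gene with at least 40 reads over the pair, by brain region and cell type (vertical axis). Points are genes, red bars are medians and dashed lines mark 2-fold. The cerebellum median is 0.93 and Tlx3 lies farthest right at 2.63, while the other medians lie between -0.38 and 0.40.

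Genes enriched in brain passed 2-fold upward at a higher share than other genes. A set of 1820 genes had a mean over both brain libraries at least 2-fold above the mean of the other 6. Of these 131 (7.2%) were higher and 23 (1.26%) lower in FFPE brain, and of the 20678 genes in between, 447 (2.16%) and 399 (1.93%). The median differences were 0.15 and -0.01. FFPE brain entered the mean that chose the set, so that these shares are a description. The same 1820 genes had medians of 0.27 in heart, -0.10 in kidney and 0.37 in liver.

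Some deeply counted genes outside the lists also passed 2-fold in brain. They were picked after their values were seen, as the most counted genes whose interval lay wholly beyond 2-fold. Mitochondrial genes, genes without a symbol and genes at least 2-fold higher in another organ were left out. The differences quoted for the other organs were therefore held under 2-fold upward by this choice. Stk10, a serine/threonine kinase of lymphocytes and other cells, had 1705 reads in FFPE brain and 754 in Frozen brain (1.44). Its differences in heart, kidney and liver were -0.03, -0.18 and 0.11. Zbtb18, a zinc finger repressor of neuronal development, had 1464 and 656 (1.42), and 0.31, 0.53 and 0.23 in the other organs. Neb, the nebulin gene of the muscle thin filament, had 2719 and 1533 (1.09), and 0.45, -0.02 and 0.42 in the other organs. The host gene of the neuronal microRNA miR-124, Mir124a-1hg, had 1621 and 863 (1.17), with 0.97 in heart, -0.13 in kidney and 0.81 in liver. Among the lists, Cry2, a repressor of the circadian clock, had 941 and 509 (1.15) and was the 1 gene of 15 clock genes past 2-fold.

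Lower genes had fewer reads than higher ones, with a median of 67 over the pair against 89. With mitochondrial reads left out of the totals they were the more numerous, 535 against 518. Among lower genes with a symbol that were not 2-fold lower in another organ, the most counted was Lor, a gene of the cornified epidermis. It had 147 reads in FFPE and 369 in Frozen brain (-1.06). The serotonin receptor gene Htr1a had 143 and 368 (-1.10), and -0.58, -0.42 and -0.43 in heart, kidney and liver. C1ql2, a synaptic protein gene of dentate granule cells, had 60 and 161 (-1.15). Avpr1a, a vasopressin receptor gene, had 57 and 143 (-1.06). The semaphorin gene Sema3f had 92 and 236 (-1.09), with -0.10, 0.81 and 0.34 in the other organs. These too were chosen after their values were seen, by a rule that left out genes at least 2-fold lower in another organ. Unlike the higher genes, they passed by the 2-fold rule alone. Their intervals of the fold lower all began under 2, at 1.72 for Lor, 1.76 for Htr1a and 1.67 for Sema3f. C1ql2 began at 1.65 and Avpr1a at 1.53, and more counted genes such as Exog and B3gnt9 were passed over for them.

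The 2 genes that limma called were higher in FFPE brain and lower in FFPE of the other 3 organs. Lppos, a noncoding gene at chr16:24392556-24393655, had 151 reads in FFPE and 87 in Frozen brain. It had 151 and 393 in heart, 198 and 419 in kidney, and 220 and 828 in liver. The brain difference of 1.06 exceeded the mean of the other organs by 2.35 ± 0.43 (SE, log2), with an adjusted p of 0.00173 by limma. Lppos overlaps the start of Lpp, a cell adhesion gene that runs from 24393350, and reads in the overlap cannot be told apart. Lpp itself had 657 and 701 reads in brain (0.17). Faap20, a subunit of the Fanconi anemia core complex at chr4:155246904-155256687, had 709 and 413 reads in brain. It had 323 and 544 in heart, 288 and 500 in kidney, and 121 and 576 in liver. The brain difference of 1.04 exceeded the others by 2.14 ± 0.41, with an adjusted p of 0.00314 by limma. Prkcz next to it, an atypical protein kinase C with a brain form, had 1188 and 652 reads (1.13), and Ski on its other side had 710 and 507 (0.75). Both calls were lost without heart, without liver, under scaling to total counts and with a prior variance without trend. The excess itself stayed at 2.19 to 2.35 for Lppos and 1.72 to 2.36 for Faap20 under these 4 settings. Limma then called 0 genes in all, and without kidney it called 1, Lppos.

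The splicing factor gene Cwc22 was lower in FFPE of all 4 organs, and least so in brain. It had 383 reads in FFPE and 875 in Frozen brain, a difference of -0.93, and -2.19, -2.36 and -2.30 in heart, kidney and liver. The excess of brain over the other organs was 1.36 ± 0.41 (SE), with an adjusted p of 0.44 by limma.

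Heat shock, respiratory chain and ribosomal protein genes had medians near 0 in brain and below 0 in heart and liver. The 15 heat shock genes had a median difference of -0.01 (log2) in brain, and of -1.01, -0.20 and -0.90 in heart, kidney and liver. The inducible chaperone gene Hspa1a had 303 and 285 reads in brain (0.35), and differences of -1.48, -0.08 and -0.87 in the other organs. Hsph1, which helps Hsp70 release its nucleotide, had 283 and 444 (-0.38), with -1.70, -0.20 and -0.95. None of the 15 passed 2-fold in brain. The 82 oxidative phosphorylation genes had a median of -0.04 in brain, and of -0.71, -0.46 and -0.87 in the other organs in the same order. The 88 cytosolic ribosomal protein genes had medians of 0.01, -0.50, -0.09 and -0.51. The heart and liver medians of these 3 lists were below 0 under all 5 scalings, while under scaling to total counts the brain medians moved with all genes to -0.24, -0.28 and -0.22. Limma called 0 members of each, and at an unadjusted p of 0.05 6 of 15, 15 of 82 and 10 of 88 were above, against 3.87% of all genes. The 18 housekeeping genes had a brain median of 0.17, with heart at -0.30, kidney at -0.03 and liver at -0.42. After quantile normalization brain stood at 0.20, heart at -0.04, kidney at -0.05 and liver at 0.00016.

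Histone and immediate early lists had medians above 0 in brain. Of 62 clustered histone genes with 40 reads over the pair, 3 (4.84%) were at least 2-fold higher and 0 lower, against 2.53% and 1.83% of all genes. The list had a median of 0.31 in brain, and heart stood at -0.51 and liver at -0.87. Histone genes within a cluster are near copies of each other, so that their reads may be split between them. The 29 immediate early genes, which neurons and other cells switch on within minutes of a stimulus, had a median of 0.30 in brain, with heart at -0.38, kidney at 0.08 and liver at -0.49. The heart median was 0.18 with the 8 libraries at the same median and spread. Egr1, a zinc finger factor of this class, had 546 and 366 reads in brain (0.84), and Arc, which acts at synapses, had 636 and 484 (0.66). Fos had 267 and 220 (0.54), and Jun had 715 and 717 (0.26). Of the 29 immediate early genes 23 were above 0, where 11925 of all 23832 genes were, and 0 passed 2-fold. Both brain medians were above 0 under all 5 scalings, falling to 0.06 for histones and 0.07 for immediate early genes under total counts.

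**Figure D4:**
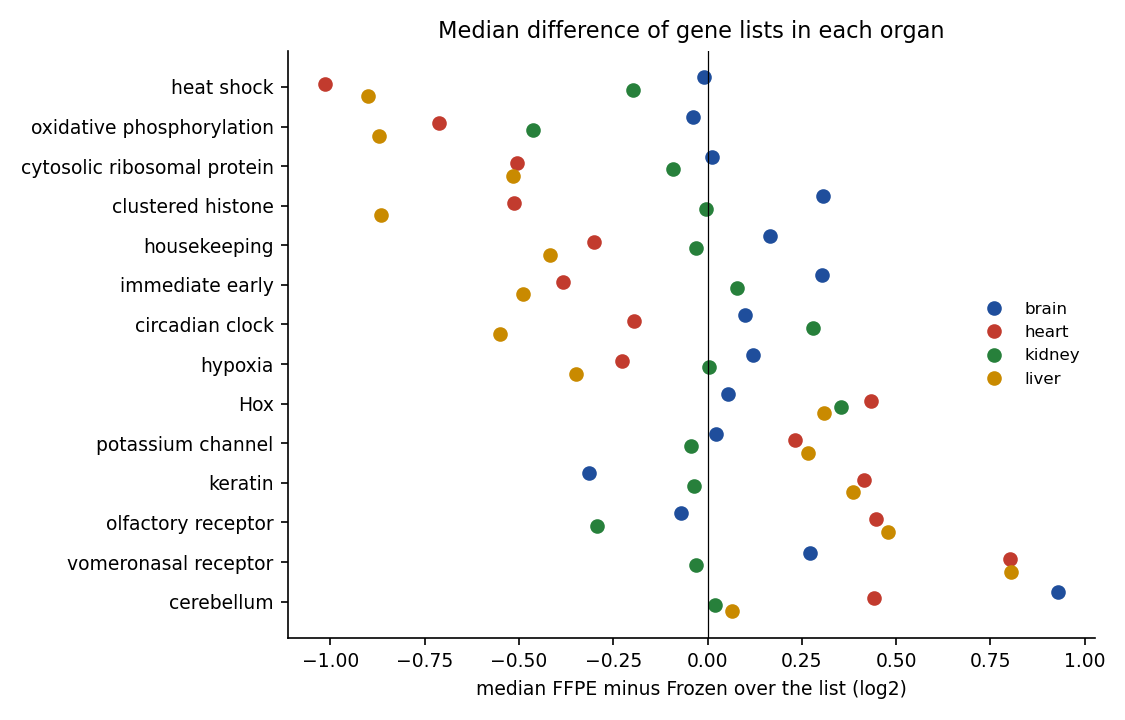
Median difference between FFPE and Frozen (log2, horizontal axis) of 14 gene lists (vertical axis) in brain, heart, kidney and liver, 1 point an organ. Brain lies at -0.01 for heat shock genes, where heart lies at -1.01 and liver at -0.90, and at 0.93 for cerebellum genes, where the other organs lie between 0.02 and 0.44.

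Many of the differences beyond counting error were shared with the other organs. Of the 217 genes whose whole interval lay beyond 2-fold higher in brain, 124 (57.1%) were at least 2-fold higher in FFPE of all 3 other organs and 60 (27.6%) in none. Of the 47 lower genes, 15 (31.9%) were lower in all 3 and 10 (21.3%) in none. For all genes, the shares in all 3 and in none were not computed. Of the 217, 144 were higher in heart, 136 in kidney and 141 in liver, against 5.43%, 2.5% and 6.95% of all genes. Of the 47, 27, 35 and 19 were lower, against 3.86%, 2.76% and 6.68%. Those percentages are of genes with the minimum of reads in that organ, while the 217 and 47 were chosen by brain reads. By the 2-fold rule alone the sharing was less: of the 603 higher genes 26.5% were higher in all 3 and 42.8% in none, and of the 435 lower genes 5.29% and 66.4%. Skint3, a member of a family of immunoglobulin-like genes of the skin, had 132 reads in FFPE brain and 0 in Frozen brain. It had 74, 76 and 96 reads in FFPE heart, kidney and liver and 0 in each Frozen library. Taking 3 reads for the count of 0, it was at least 52.8-fold higher in FFPE brain, and the exact 95% interval, which allows for the counting error of both libraries, began at 42.4-fold. Skint4 (111 and 0 reads) was at least 44.4-fold higher, BC018473 (90 and 0) at least 36.0-fold and Skint9 (49 and 0) at least 19.6-fold on the same count of 3. Their exact intervals began at 35.5, 28.7 and 15.4. Skint6 had 195 and 35 reads (2.73), while Skint7 of the same cluster had 73 and 101 (-0.20). The strains of the FFPE and the Frozen mice were not given in the sources used here. Whether both carried the same copies of these genes and of the V1R genes of chromosome 7 was not tested.

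Pheromone receptor genes formed blocks of this kind on chromosome 7. The V1R genes encode vomeronasal receptors and lie in arrays of near copies, so that reads may be split among them. All 13 genes that start between 22027977 and 22872147 were at least 2-fold higher in FFPE brain, with a median of 2.55. Their medians in heart, kidney and liver were 3.34, 3.21 and 3.34. In the block that starts at 20101158, 9 of 9 genes were higher, with a median of 3.28. Vmn1r148 had 138 reads in FFPE brain and 1 in Frozen brain, and 72 and 7, 86 and 3, and 115 and 7 in heart, kidney and liver. Over all 282 vomeronasal receptor genes with 40 reads, 41 (14.5%) were higher and 9 (3.19%) lower, against 2.53% and 1.83% of all genes.

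Among the genes with the largest negative differences, Gm4312, Gm4307, Gm4302 and Gm4305 lie together on chromosome 10. Gm4307 had 11 reads in FFPE brain and 107 in Frozen brain (-2.96), and -1.84, -2.35 and -1.47 in the other organs. Gm21616 had the largest difference, with 3 and 62 reads (-3.89). The immunoglobulin segment Ighv8-14 had 3 and 38 (-3.20). Chromosome 7 held the largest share of higher genes among the autosomes, 5.04%, and chromosome 18 the smallest, 0.709%. On chromosome Y 17 of 44 genes (38.6%) were higher and 7 (15.9%) lower.

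All 15 mitochondrial genes were at least 2-fold higher in FFPE brain. Mitochondrial DNA carries no histones. Their median difference was 1.75 in brain, with a range of 1.03 to 2.60, and 3.13 in heart, 2.32 in kidney and 1.14 in liver. The largest was ND3, a subunit of respiratory complex I, with 14914 reads in FFPE and 2945 in Frozen brain (2.60). The gene with the most reads in FFPE was ND5, with 115898 and 41313. The ribosomal RNA gene mt-Rnr2 had 70006 and 36405 (1.21). The mitochondrial difference was thus larger in heart and kidney than in brain and smaller in liver by this median. With mitochondrial reads left out of the library totals, the median of all brain differences was -0.07, 518 genes were higher and 535 lower, and 9 cerebellum genes passed 2-fold as before.

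Low counts held most of the genes past 2-fold. Genes were put into 5 equal bins by their mean level in brain. In the lowest bin 7.36% were higher and 7.28% lower, and the median difference was -0.05. In the highest bin 2.12% were higher and 0.0210% lower, and the median was 0.08. With the scaling of the authors, heart and liver ran the other way, from 0.36 and 0.38 in the lowest bin to -0.17 and -0.14 in the highest bin. After quantile normalization they ran upward, from -0.05 and -0.06 to 0.12 and 0.18, so that their direction depended on the scaling. Kidney went from -0.03 to 0.04. In brain 101 of the genes in the highest bin were higher and 1 was lower.

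**Figure D5:**
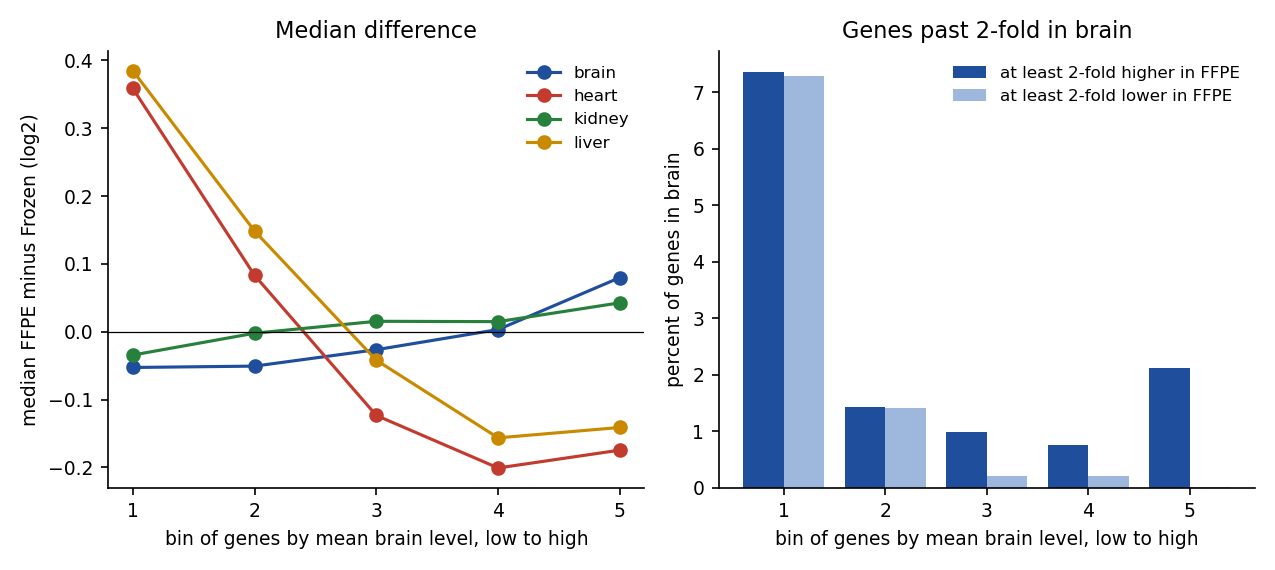
Left, median difference between FFPE and Frozen (log2) in each organ for 5 equal bins of the genes ordered by their mean level in brain. Right, percent of the genes of each bin that were at least 2-fold higher (dark bars) or lower (light bars) in FFPE brain. With the scaling of the authors, brain and kidney run slightly upward and heart and liver downward, a direction that flips after quantile normalization, and in the highest bin 2.12% were higher and 0.0210% lower in brain.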

How the data were processed

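H3K27Ac was measured by chromatin immunoprecipitation and sequencing. The submitters' processing notes name mouse build mm10 and the tools limma, featureCounts and Bowtie2. Their versions, the counted part of each gene and each sample's library kit were not stated. Values deposited by the authors are log2 CPM over 27179 genes, 1 column a group. With an added count of 0.5 and a scaling factor per library, 100% of the values of each column came back as whole counts within 0.001 of a whole number. Of the rows, 235 were at 0 in all 8 columns, 26944 were tested and 1275 had no symbol, and 25275 IDs were found in RefSeq. Inputs were not analysed here, and values of 1 cerebellum gene are not reported here.

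The deposited log2 values were differenced within each organ. Genes needed at least 40 counts over a pair, and Clopper-Pearson 95% intervals of count ratios cover counting error only; a count of 0 was taken as 3. The interaction of brain and FFPE was fitted with limma 3.58.1 in R 4.3.3 (trended prior, two-sided, Benjamini-Hochberg adjusted, threshold 0.05) after it had been tested on simulated data. Nothing says that samples were separate animals, and p-values measure no spread between animals or replicates. They rest on how far heart, kidney and liver differ among themselves, moderated by the prior. Named genes were the 10 largest differences each way by the interval rule, limma's calls, and for each list its most counted member and up to 3 extreme members each way; others were chosen after their values were seen. The members and the 46 gene lists were chosen with earlier results of these data known. Alternatives covered scaling, count minimum, pseudocount, fold rule, prior and left-out organs; those on the cerebellum count were chosen after seeing the data.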

Additional observations from a re-analysis of the deposited data

Results flagged for a closer look

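In all, 2 genes had an FFPE minus Frozen difference in brain that differed from that in the other organs by limma's interaction test. For Lppos the brain difference lay 2.35 (log2) above the mean of heart, kidney and liver, and for Faap20 it lay 2.14 above. In both genes the brain libraries differed upward and all 3 other organs downward. Without heart, without liver or under scaling to total counts neither had an adjusted p under 0.05 by limma. With a prior without trend both had an adjusted p of 0.999 by limma, and without kidney Faap20 had 0.0911.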

How the results depend on the processing

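The 603 higher genes became 359 under scaling to total counts, 955 with the 8 columns at the same median and spread, 1329 with no minimum, 277 with at least 100 counts over the pair and 217 with the whole interval beyond 2-fold. The 435 lower genes became 940 under total counts, 936 with no minimum, 117 with at least 100 counts and 47 with the whole interval. The cerebellum count was 8 to 10 of 19 over 8 settings. Limma called 2 genes above the other organs in the main setting, 0 under total counts, 6 after quantile normalization, 11 at the same median and spread and 0 with a prior without trend. It called 0 without heart, 1 without kidney and 0 without liver. It called 0 below in each of these settings. No paired analysis was possible because the columns carry no replicate number, so the replicate block was not run. With 1 column a group, no replicate could be left out. Genes of few reads set the counts past 2-fold: the depth of 97 and 119 reads for the median gene limits what a single gene can show.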

Other observations

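Ion channel genes, many of them neuronal, lay close to the median gene in brain. Of 80 potassium channel genes 0 passed 2-fold, with a median difference of 0.02, and of 40 voltage-gated sodium and calcium channel genes 0 did, with a median of -0.06. Of 26 GABA and glycine receptor genes 1 (3.85%) was higher, Gabra6, with a list median of -0.09. Of 57 clustered protocadherin genes with 40 reads 1 (1.75%) was higher and 0 were lower, with a median of 0.17. Over all genes 2.53% were higher.

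Other large gene families lay near or below 0. Of 960 olfactory receptor genes with 40 reads 49 (5.1%) were higher and 86 (8.96%) lower in FFPE brain, against 2.53% and 1.83% of all genes. The median levels of the list, 2.29 and 2.35 (log2 CPM), fell in the lowest bin by level, where 7.36% were higher and 7.28% lower. The median of the 960 was -0.06 in brain, and 0.03 with the 8 libraries at the same median and spread. Of 50 keratin genes 38 were below 0 and 1 (2%) was at least 2-fold higher, with a median of -0.32. Of 44 collagen genes 30 were below 0 and 0 passed 2-fold, with a median of -0.08. Among all 23832 genes 11902 were below 0. Of 38 Hox genes 2 (5.26%) were lower, against 1.83% of all genes: Hoxb13 with 21 and 66 reads and Hoxa6 with 16 and 41.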
